A study of Mus musculus with 46 samples.

Results

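The genes described here are 51 genes of the extracellular matrix and its receptors, out of 10453 gene symbols in the count tables. They were chosen by symbol alone: the collagen and laminin chains, the lysyl oxidases, the lysyl and prolyl hydroxylases that act on collagen, all symbols that open with Itga or Itgb, and Fn1, Sparc, Nid1, Hspg2, Fbn1 and Serpinh1. By role they were 10 basement membrane genes, 5 fibrillar collagens, 8 other collagens, 13 collagen-modifying enzymes with the chaperone Serpinh1, 3 glycoproteins and 10 integrin chains. The pattern also took Itgb1bp1 and Itgb3bp, 2 genes named for binding to an integrin chain that are not chains themselves. RefSeq names 107 protein-coding mouse genes that fit these patterns, and those not in the tables, among them Col1a2, Col5a2, Lama3, Lamb3, Lox, Itga2 and Itgb4, were not analysed here. Of the 51 genes, 48 were in the tables of both treatments, while Col5a3, Col6a3 and Col7a1 were only in those of the DMSO-treated cells.

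Ribosome profiling, which counts mRNA fragments covered by ribosomes (footprints), and RNA-seq were carried out in EPP2, a mouse pancreatic cancer cell line with Cas9 under a doxycycline-inducible promoter. In the Ctu1KO groups, doxycycline at 300 ng/mL was given 4 days before the experiment to cut Ctu1 with paired guides, and the labels give the Control groups as wild type. In the methods, controls carry guides to non-coding regions or receive no doxycycline, and the inducible lines were sorted from single cells, so that a line can stem from 1 clone. The labels give doxycycline for the Ctu1KO groups only, so its effects and those of Cas9 cutting cannot be told apart here from loss of Ctu1. Each genotype was treated for 2 h with DMSO or with 300 nM Torin1, an inhibitor of the mTOR kinase, which gives the groups Control DMSO, Ctu1KO DMSO, Control Torin1 and Ctu1KO Torin1. Footprints were compared over 6, 5, 6 and 6 libraries of these groups and transcripts over replicates 1 to 3 of each. For the ribosome profiling the methods name 2 biologically independent replicates from consecutive days, whereas the figure legends name 5 or 6 independent experiments, as many as the labels have replicates. The p-values measure the spread between these libraries, which the tests as designed treat as independent although they were not equally far apart. In Control DMSO footprints, the chi-square distance per gene was 37.0 between replicates 1 and 2, 31.2 between 3 and 4 and 26.9 between 5 and 6. Between other replicates of that group it was 55.5 to 116.

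Total counts ran from 4602092 to 52907878 per footprint library and from 129881946 to 325494304 per RNA-seq library. The lowest, Ctu1KO Torin1 replicate 1, was also the one with the largest share of its footprints on these genes, at 2.17%, against a mean of 0.954% ± 0.130 (SD, n = 6) in Control DMSO. Levels are given as counts per 1000000 of the library's counts for symbols in the tables of both treatments (CPM). Footprints of Ctu1 lay between 1.58 and 3.44 CPM in the 6 Control DMSO libraries and between 1.30 and 2.28 CPM in the 5 Ctu1KO DMSO libraries. The log2 change of Ctu1, -0.54 ± 0.29 (SE), did not pass the test (adjusted p = 0.353). Its transcripts did not differ beyond their spread (log2 change 0.02 ± 0.11, adjusted p = 0.926), and its Torin1 counts were not analysed here. RNA-seq replicates 4 to 6 were left out of the main results by the rule that chose these genes, and some went against their label. On an axis where Control DMSO replicates 1 and 2 define 0 and the Torin1 ones define 1, the 2 Ctu1KO DMSO replicates 4 and 5 lay at 1.07 and 0.99. The Control Torin1 replicates 5 and 6 lay at 0.097 and 0.108. On such an axis taken from footprints, Control Torin1 replicates 3 to 6 lay at 0.527 to 0.558. Those of Ctu1KO Torin1 lay at 0.736 to 0.831, and all of these footprint libraries were kept. Of the markers of the labelled cell type, 5 of 10 duct and epithelial genes were listed, with Krt8 clearly present and Epcam near 0, and 10 of 11 mesenchymal genes were listed, led by Vim. The summed mesenchymal markers covered 3687 to 4520 CPM of the Control DMSO footprints, 3728 to 5121 CPM in Ctu1KO DMSO, 2754 to 3445 CPM in Control Torin1 and 2294 to 3083 CPM in Ctu1KO Torin1, where the Torin1 sums hold 9 of the 10 genes. In RNA-seq replicates 1 to 3 of the groups in the same order, these sums were 2532 to 2767, 3197 to 3499, 3185 to 3521 and 4988 to 5660 CPM, and those of the duct and epithelial markers were 296 to 313, 322 to 403, 383 to 426 and 534 to 602 CPM (4 of the 5 genes under Torin1). Both sums thus moved with the transcript rises described below, and their part in the results was not tested. None of the endothelial or acinar markers was listed. Of 6 leukocyte markers only Cd68 was listed, at 1.27 to 2.20 footprint CPM in Control DMSO and 2.08 to 6.12 CPM in Ctu1KO DMSO (transcripts 1.55 to 1.82 and 1.62 to 2.54 CPM), and its Torin1 counts were not analysed here.

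Matrix proteins are made in the endoplasmic reticulum, where prolyl and lysyl hydroxylases modify collagen chains and Serpinh1 (Hsp47) holds the folded triple helix before export. Fibrillar collagens give tissue its tensile strength, whereas collagen IV, laminin trimers, nidogen and perlecan build the basement membrane on which epithelial cells rest, and integrins connect both to the cytoskeleton. Pancreatic cancer is known for an abundant matrix. Ctu1 is the catalytic subunit of the enzyme that adds sulphur to uridine at the wobble position of the tRNAs that read AAA, CAA and GAA codons, and mTORC1, a target of Torin1, controls the translation of many mRNAs.

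Because the Ctu1 substrates read 3 codons, the codon make-up of these genes was read from GENCODE M21 coding sequences on GRCm38. The median share of AAA, CAA and GAA was 4.77% in the 51 genes and 6.06% in the 10161 listed genes with a coding sequence, and 41 of the 51 lay below the latter. Lama5, the laminin alpha-5 chain, held 2.53% of such codons and Hspg2, which encodes perlecan, 3.15%. Lamb1 and Col4a1, the laminin beta-1 and collagen IV alpha-1 chains, stood above the median with 7.61% and 7.37%. Fbn1 (fibrillin-1) held 5.71% and Itgb1, the beta-1 chain shared by many integrins, 10.03%. To show what these shares look like in sequence, the 40 consecutive codons richest in AAA, CAA and GAA are given for these 6 genes, in frame from 5′ to 3′ and with those codons in capitals:
Lama5: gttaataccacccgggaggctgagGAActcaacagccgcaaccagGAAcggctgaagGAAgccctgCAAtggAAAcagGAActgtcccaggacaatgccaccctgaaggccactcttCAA
Hspg2: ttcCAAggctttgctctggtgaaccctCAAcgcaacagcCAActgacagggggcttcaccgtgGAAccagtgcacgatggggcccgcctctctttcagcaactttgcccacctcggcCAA
Lamb1: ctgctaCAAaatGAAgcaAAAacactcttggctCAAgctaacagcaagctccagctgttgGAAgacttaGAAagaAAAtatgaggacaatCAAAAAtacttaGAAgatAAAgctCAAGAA
Col4a1: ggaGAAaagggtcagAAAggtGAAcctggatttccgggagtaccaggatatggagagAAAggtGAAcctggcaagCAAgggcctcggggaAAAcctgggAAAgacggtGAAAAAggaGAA
Fbn1: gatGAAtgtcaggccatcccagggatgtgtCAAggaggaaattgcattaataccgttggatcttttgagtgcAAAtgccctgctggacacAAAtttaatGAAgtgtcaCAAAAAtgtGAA
Itgb1: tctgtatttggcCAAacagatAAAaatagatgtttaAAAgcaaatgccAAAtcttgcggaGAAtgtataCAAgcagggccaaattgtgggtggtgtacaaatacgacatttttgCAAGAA

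All 6 stretches are coding, and codons are counted from the start codon of the principal transcript. The Lama5 stretch, codons 2394 to 2433 of 3718, holds 7 of these codons and belongs to a transcript at chr2:180176373-180225859 on the minus strand. That of Hspg2 spans codons 1353 to 1392 of 4383 (chr4:137468803-137570629, plus strand) and holds 5, all of them CAA or GAA. In Lamb1, codons 1721 to 1760 of 1786 (chr12:31265234-31329493, plus strand) hold 13 of them, and in Col4a1, codons 258 to 297 of 1669 (chr8:11198423-11312826, minus strand) hold 11. The Col4a1 stretch sets GAA and AAA between glycine codons. Codons 248 to 287 of 2873 in Fbn1 (chr2:125300594-125506385, minus strand) and codons 17 to 56 of 798 in Itgb1 (chr8:128685654-128733200, plus strand) hold 8 each.

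Per kilobase of coding sequence, footprints of these genes covered more than 3 orders of magnitude in Control DMSO cells. Sparc, a collagen-binding glycoprotein, had 847 ± 164 CPM per coding kb (SD, n = 6) and Serpinh1 766 ± 150, so that the top 2 did not differ beyond their spread. Fn1 (fibronectin) followed with 331 ± 59.4 and Itgb1 with 257 ± 32.2, then Col3a1 with 159 ± 34.4 and Col4a1 with 112 ± 22.8 CPM per coding kb. Itga6, Nid1, P4ha1, Lamb1 and Col1a1 had overlapping levels between 71.1 and 82.5. Of the 3 chains that can form a laminin trimer, Lamb1 stood at 72.8 ± 8.45, Lamc1 at 37.3 ± 7.01 and Lama5 at 6.19 ± 1.03 CPM per coding kb. The lowest were Col11a2, Col5a3, Itga10, Col7a1 and Col6a3, all under 1. Transcripts per kilobase were led by the same genes in another order, with Serpinh1 at 504 ± 102, Fn1 at 409 ± 97.4 and Sparc at 281 ± 64.0 CPM per kb (SD, n = 3).

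**Figure D1:**
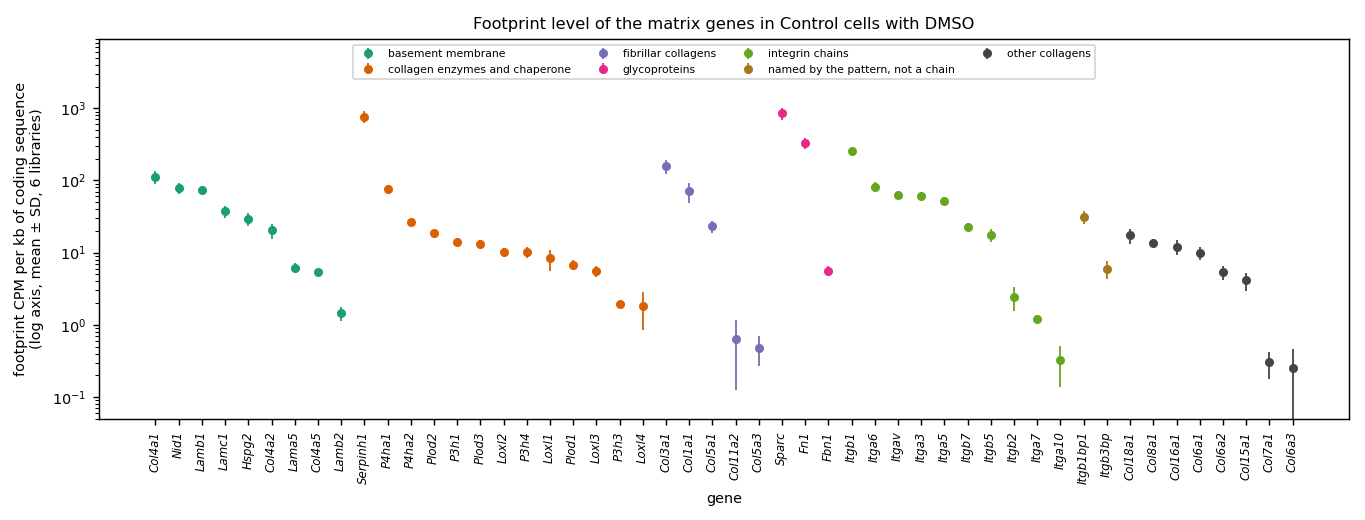
Footprint level of the matrix genes in Control DMSO cells as CPM per kilobase of coding sequence on a log axis, mean ± SD over 6 libraries, coloured by role. Sparc (847) and Serpinh1 (766) lead, and Col6a3 (0.252) is lowest.

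Few of these genes passed the test in any comparison, and comparisons that share a group also share its libraries. Knockout of Ctu1 under DMSO changed footprints of 2 of 51 genes, both lower, where 2.66% of all genes passed (169 higher, 108 lower). Under Torin1, the same comparison called 2 of 48, 1 in each direction, against 4.83% of all genes. Torin1 called 0 of 48 footprints in Control, where 7.24% of all genes passed, while 7 of 48 had an unadjusted p under 0.05 and DESeq2 called 2. In Ctu1KO it called 1 of 48, against 8.0% of all genes. Among the footprint comparisons, the share of these genes called was above that of all genes only for the knockout under DMSO, at 3.92%. Counts at an unadjusted p under 0.05 and counts by DESeq2, here and below, stand without the share of all genes. They are therefore not read as results about these genes.

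Among transcripts, knockout under DMSO called 4 of 51, 3 of them higher, with a background of 5.12%, and 0 of 48 under Torin1, with a background of 1.31% (7 at an unadjusted p under 0.05, 5 by DESeq2). Torin1 raised 3 of 48 transcripts in Control (13.1% of all genes called) and 1 of 48 in Ctu1KO (8.25%). Translational efficiency, the footprint change relative to the transcript change in 1 model over replicates 1 to 3, was lower under Torin1 for 1 of 48 genes in Control (1.18% of all genes called) and for the same gene, Lama5, in Ctu1KO (1.77%). On knockout no efficiency of these genes passed under DMSO (0.0% of all genes called) or Torin1 (0.114%), with 1 unadjusted p under 0.05 in each and no call by DESeq2. The difference in the Torin1 effect on footprints between genotypes passed for none of the 48 genes (0.639% of all genes called, no unadjusted p under 0.05 among these genes and no DESeq2 call).

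Replicates with the same number varied together in most comparisons, and fits that keep the number as a block made many more calls, over all genes and over these. For footprints under Torin1 in Control, the block gave 6 higher and 8 lower of 48 with 20.5% of all genes called, and for knockout under Torin1 5 higher and 5 lower with 14.4%. For transcripts it gave 18 higher and 5 lower of 51 on knockout under DMSO (28.0% of all genes), 17 higher and 1 lower of 48 on knockout under Torin1 (32.8%), 15 higher and 2 lower under Torin1 in Control (43.7%), and 17 higher and 0 lower under Torin1 in Ctu1KO (35.1%). Efficiencies under Torin1 were lower for 2 of 48 in Control (1.16%) and 3 of 48 in Ctu1KO (2.03%).

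Basement membrane genes held both footprint calls of the knockout under DMSO. All 10 had lower mean footprints in Ctu1KO than in Control (median log2 change -0.34, against -0.00 over all genes), of which Lama5 and Lamb1 fell by the test. Scaling to library totals instead of by TMM put 1 of the 10 above 0. In these bulk libraries, fewer cells of a kind and less RNA per cell cannot be told apart.

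Lama5, which showed the larger difference of the 2, is a chain of the main laminin of mature epithelial basement membranes. Its footprints ran from 56.9 to 82.8 CPM with a median of 67.5 in the 6 Control DMSO libraries, and stood at 54.2, 43.9, 29.1, 27.2 and 26.1 CPM in the 5 Ctu1KO DMSO libraries. The groups did not overlap, and the log2 change was -0.98 ± 0.20 (SE, adjusted p = 0.0201). Without Ctu1KO DMSO replicate 3 or 5 the call was lost (adjusted p = 0.0578 and 0.0517). With Torin1, Lama5 footprints ran from 43.0 to 78.8 CPM (median 50.1) in Control and from 14.9 to 27.5 CPM (median 21.4) in Ctu1KO. These groups did not overlap either, and the log2 change of -1.41 ± 0.21 (adjusted p = 0.000885) kept its call when any 1 library was left out (-1.51 to -1.26). Its transcripts were at 48.8, 55.5 and 51.5 CPM in Control DMSO and at 34.0, 31.4 and 20.1 CPM in Ctu1KO DMSO. They fell by 0.85 ± 0.18 on the log2 scale (adjusted p = 0.0399, 0.0031 with the block), a call that was lost when any library but Ctu1KO DMSO replicate 3 was left out (adjusted p 0.0693 to 0.154). Under Torin1 the transcripts had a log2 change of -0.40 ± 0.22 (adjusted p = 0.366), which passed with the block (-0.44, adjusted p = 0.0143). The change in efficiency on knockout was 0.07 ± 0.32 under DMSO and -0.87 ± 0.36 under Torin1, and neither passed (adjusted p = 0.9999 and 0.921, the latter 0.118 with the culture as a block).

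Lamb1 and Lamc1, the beta and gamma chains that join Lama5 in a laminin trimer, are described next. Lamb1 footprints ran from 322 to 448 CPM (median 402) in Control DMSO and were 337, 307, 213, 253 and 266 CPM in Ctu1KO DMSO, a log2 change of -0.54 ± 0.12 (adjusted p = 0.0337). The ranges overlapped, and the call was lost without Control DMSO replicate 2, 3, 4, 5 or 6 or Ctu1KO DMSO replicate 3, 4 or 5 (adjusted p 0.0533 to 0.0809). With Torin1 the Lamb1 log2 change on knockout was -0.28 ± 0.15 (adjusted p = 0.351). Lamc1 footprints ran from 148 to 227 CPM (median 169) in Control DMSO and were 249.8, 175, 129, 125 and 114 CPM in Ctu1KO DMSO, so that the knockout libraries lay on both sides of the Control range. It had a log2 change of -0.23 ± 0.20 under DMSO and -0.11 ± 0.23 under Torin1. Transcripts of Lamb1 (-0.32 ± 0.17) and Lamc1 (-0.21 ± 0.21) did not pass under DMSO (adjusted p = 0.293 and 0.580), and both fell with the block (adjusted p = 0.016 and 0.042).

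The 2 chains that form the common collagen IV trimer and perlecan were spread widely in the knockout. Col4a1 footprints were 699, 550.4, 345, 294 and 307 CPM in Ctu1KO DMSO, against 447 to 749.5 CPM (median 545) in Control DMSO. Hspg2 footprints were 553, 401, 264, 216 and 221 CPM against 314 to 492 CPM (median 361). For these 2 genes replicates 1 and 2 of the knockout lay within or above the Control range and replicates 3 to 5 lay below it. Col4a2 did the same, with 137, 116, 59.7, 54.6 and 55.3 CPM against 79.0 to 142 CPM (median 97.1). The log2 changes of -0.40 ± 0.23 for Col4a1 (adjusted p = 0.388), -0.35 ± 0.26 for Col4a2 (0.528) and -0.28 ± 0.24 for Hspg2 (0.589) did not pass. Under Torin1, Col4a1 ranged from 231 to 849 CPM in Ctu1KO and from 364 to 732 CPM in Control, and Hspg2 from 132 to 486 CPM and from 236 to 442 CPM. With the block, both fell on knockout under Torin1 (Col4a1 -0.48, adjusted p = 0.021, and Hspg2 -0.53, adjusted p = 0.029). Nid1, the nidogen that bridges laminin and collagen IV, had 239.6 to 387 CPM (median 281) in Control DMSO and 347, 315, 308, 238 and 290.3 CPM in Ctu1KO DMSO, overlapping ranges that gave -0.03 ± 0.13 under DMSO and 0.03 ± 0.14 under Torin1. Col4a5 and Lamb2 had log2 changes of -0.34 ± 0.14 and -0.19 ± 0.25 under DMSO and did not pass.

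**Figure D2:**
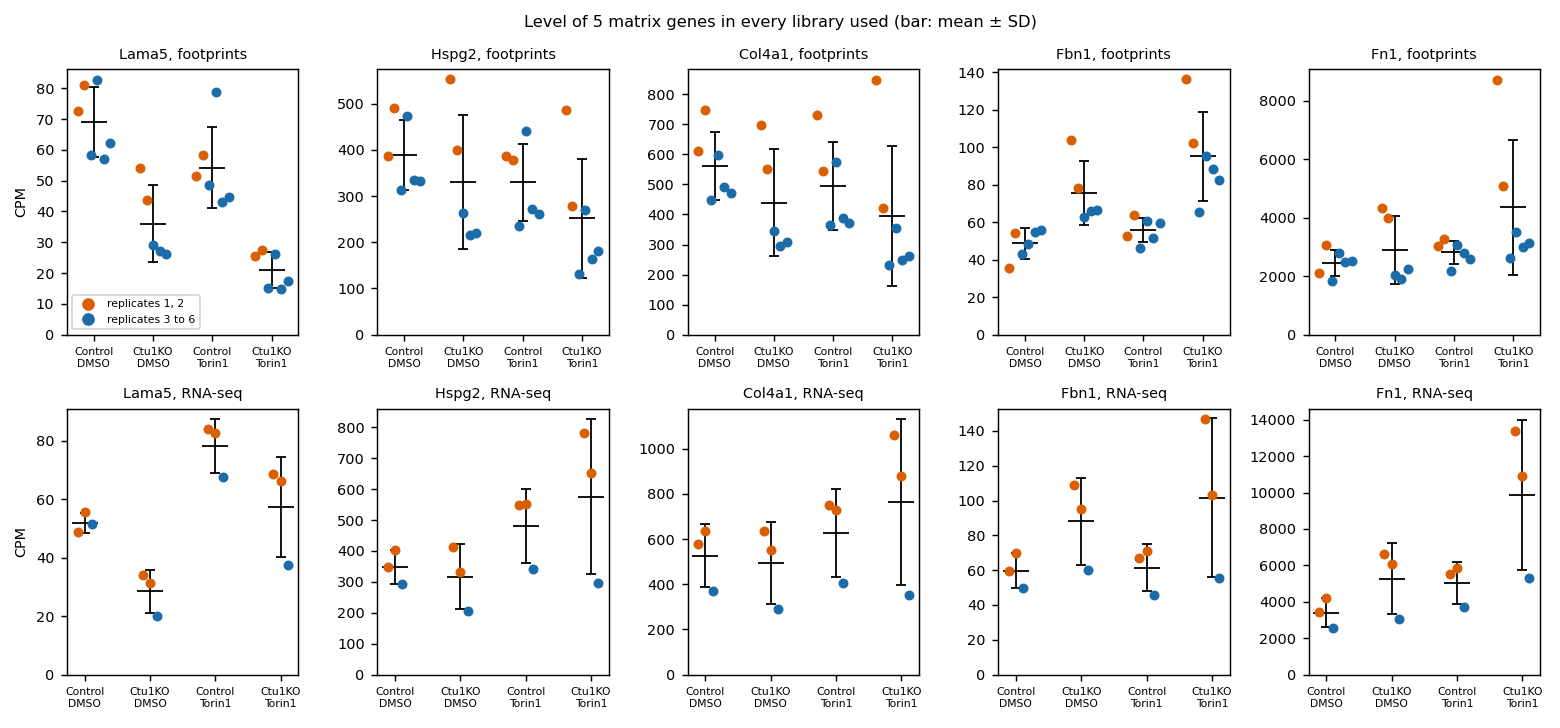
CPM of Lama5, Hspg2, Col4a1, Fbn1 and Fn1 in every footprint library (top) and in RNA-seq replicates 1 to 3 (bottom) of the 4 groups, with replicates 1 and 2 in orange and later replicates in blue, bars giving mean ± SD. Lama5 footprints of the 2 genotypes do not overlap under either treatment, whereas those of Hspg2 and Col4a1 overlap, with the orange points high in Ctu1KO.

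The libraries of replicates 1 and 2 stood apart from the later ones in the knockout comparisons, which were therefore repeated within each set. In replicates 1 and 2, no footprint of these genes passed under DMSO (11 of 51 at an unadjusted p under 0.05) or under Torin1 (8 of 48), and none of all genes did under DMSO. The median log2 change of these genes was 0.13 under DMSO, with 35 of 51 above 0, and 0.30 under Torin1, with 36 of 48 above 0. In replicates 3 to 6, 7 of 51 passed under DMSO with 1.77% of all genes called, and 8 of 48 under Torin1 with 6.44%. The median there was -0.17 under both treatments, with 21 of 51 and 16 of 48 above 0, so that the direction of the set as a whole turned between the 2 sets of libraries. In the later replicates Lama5, Lamb1, Col4a1, Col4a2, Col5a1 and Itga3 fell on knockout under both treatments. Plod3 fell under Torin1 only by the test, Itga10 rose under DMSO and Fbn1 rose under Torin1.

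Lama5 was lower in both sets, at -0.69 in replicates 1 and 2 and -1.29 in the later ones under DMSO, and at -1.08 and -1.61 under Torin1. Col4a1 stood at -0.16 and -0.72 under DMSO and at -0.03 and -0.69 under Torin1. Hspg2 changed sign under DMSO, from 0.08 to -0.69. The labels give no batch, and what separates these libraries was not tested. The set of replicates and the genotype were not confounded, as each set held both genotypes.

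**Figure D3:**
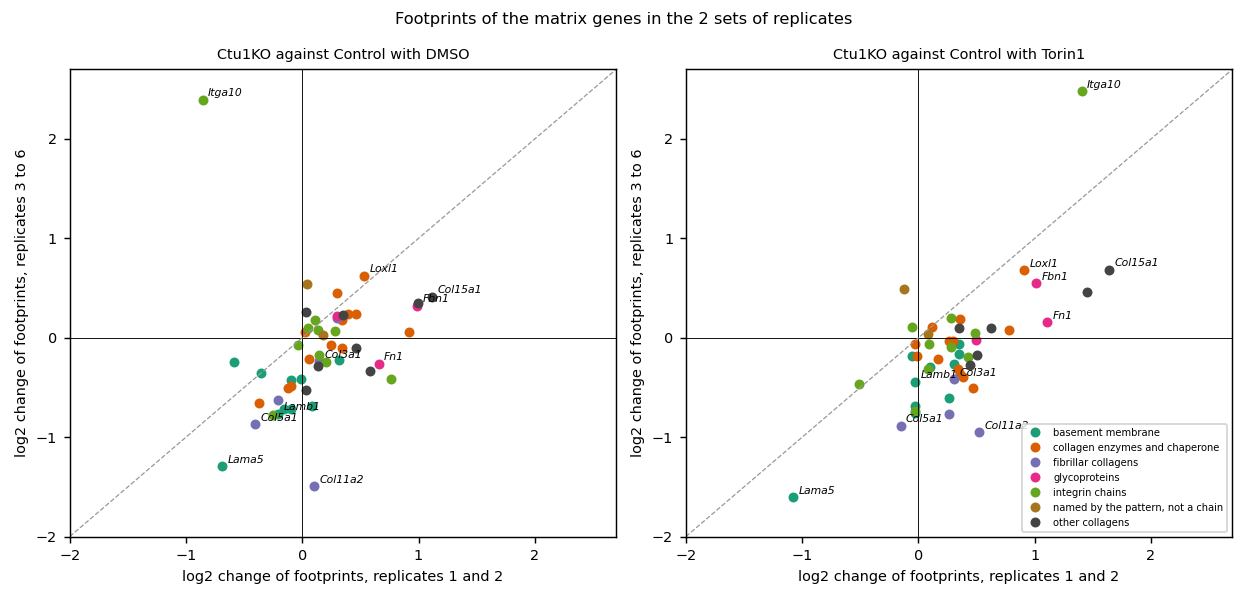
Log2 change of footprints in Ctu1KO against Control within replicates 1 and 2 (horizontal) and within replicates 3 to 6 (vertical), under DMSO and Torin1, 1 point per gene coloured by role, with lines at 0 and a dashed line of equal change. Lama5 lies at the lower left under both treatments (-0.69 and -1.29 under DMSO, -1.08 and -1.61 under Torin1), and 35 of 51 genes lie right of 0 under DMSO while 21 lie above it.

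Fibrillar collagens gave no call in any comparison as designed, with 1 of 5 at an unadjusted p under 0.05 on knockout under DMSO in footprints and 1 of 5 in transcripts, where DESeq2 called Col5a3. Col1a1, the main chain of collagen I, had 201 to 446 CPM of footprints (median 309) in Control DMSO and 438, 298, 248, 132 and 135 CPM in Ctu1KO DMSO (log2 change -0.35 ± 0.30, adjusted p = 0.60). Col3a1 had 497 to 863 CPM (median 753) against 1054, 833, 641, 543 and 477 CPM (-0.02 ± 0.21, adjusted p = 0.974). Replicates 4 and 5 of the knockout lay below the Control range for Col1a1, while for Col3a1 the knockout libraries reached past it on both sides. Col5a1, a collagen V chain that regulates fibril assembly, had 99.4 to 157 CPM (median 123.2) against 137, 103, 76.3, 62.0 and 53.0 CPM, a log2 change of -0.60 ± 0.23 (adjusted p = 0.171). Under Torin1 the Col5a1 change on knockout was -0.53 ± 0.30 (adjusted p = 0.381), which passed with the block (-0.66, adjusted p = 0.012). Its transcripts gave -0.19 ± 0.23 under DMSO and 0.10 ± 0.36 under Torin1. Col5a3 transcripts had a log2 change of 0.99 ± 0.24 on knockout (adjusted p = 0.0579, 0.015 with the block), from a level below 1 CPM per kb. Col11a2 was too low to compare, with 0.645 ± 0.519 footprint CPM per coding kb in Control DMSO.

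Other collagens were higher in transcripts of the knockout. All 8 had positive log2 changes under DMSO (median 0.55), and 3 rose by the test, where 5.12% of all genes passed. Col15a1, a collagen of the basement membrane zone, went from 7.29, 9.86 and 5.33 CPM in Control DMSO to 18.8, 20.1 and 18.2 CPM in Ctu1KO DMSO (1.37 ± 0.20, adjusted p = 0.0174). Col6a2, a chain of the beaded collagen VI filament, went from 19.3, 19.8 and 12.3 CPM to 36.2, 31.9 and 32.9 CPM (0.997 ± 0.166, adjusted p = 0.0245). Col18a1, the collagen from which endostatin is cleaved, went from 52.4, 63.1 and 56.0 CPM to 69.6, 83.3 and 78.9 CPM (0.45 ± 0.10, adjusted p = 0.0477). In all 3 genes no Control library reached a knockout one. With 3 libraries a group the calls were not stable: Col15a1 and Col6a2 lost theirs without replicate 1 or 2 of either group (adjusted p up to 0.0707 and 0.0873), and Col18a1 whichever of the 6 libraries was left out (adjusted p 0.0689 to 0.139). With the block, 6 of the 8 rose, where 28.0% of all genes passed. That fit added Col6a1 (0.50, adjusted p = 0.0046), Col6a3 (0.61, 0.014) and Col7a1 (0.73, 0.012), while Col16a1 (0.00) and Col8a1 (0.08) did not pass.

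Footprints of these 8 collagens did not pass on knockout under DMSO, with 2 at an unadjusted p under 0.05 and 0 called by DESeq2. Col15a1 footprints were 44.5, 36.4, 36.3, 14.4 and 16.8 CPM in Ctu1KO DMSO against 11.5 to 24.8 CPM (median 16.0) in Control DMSO (0.76 ± 0.29, adjusted p = 0.182). Col6a2 showed the same split, with 35.1, 39.0, 33.2, 12.6 and 17.7 CPM against 12.2 to 21.04 CPM (median 17.1). Knockout replicates 1 to 3 lay above the Control range in both genes and replicates 4 and 5 within it. Under Torin1 the log2 changes were 1.08 ± 0.37 for Col15a1 (adjusted p = 0.114) and 0.82 ± 0.24 for Col6a2 (adjusted p = 0.0626, 0.025 with the block), both of which DESeq2 called (adjusted p = 0.0305 and 0.0141). The transcript changes under Torin1 were 1.32 ± 0.27 and 1.22 ± 0.32 (adjusted p = 0.0654 and 0.105), and both passed with the block (adjusted p = 0.00022 and 0.00048). Col8a1, a short-chain collagen, had a log2 change of 0.40 ± 0.12 in Control footprints under Torin1 (adjusted p = 0.0624, 0.0032 with the block).

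The 3 glycoproteins had positive footprint and transcript changes on knockout under both treatments as designed. Within replicates 3 to 6 alone, Fn1 footprints gave -0.26 under DMSO and Sparc footprints -0.02 under Torin1, while Fbn1 stayed above 0 in both sets of replicates. Fbn1, the backbone of microfibrils, was the clearest. Its footprints ran from 46.5 to 63.6 CPM (median 56.0) in Control Torin1 and from 65.6 to 137 CPM (median 91.9) in Ctu1KO Torin1, without overlap. The log2 change was 0.72 ± 0.16 (adjusted p = 0.0161), and it passed with any 1 library left out (0.59 to 0.81, adjusted p up to 0.0441). Under DMSO, Fbn1 had 35.5 to 55.9 CPM (median 51.4) in Control and 104, 78.4, 62.6, 66.1 and 66.3 CPM in Ctu1KO. These did not overlap either, but the change of 0.59 ± 0.15 missed the threshold (adjusted p = 0.0555). Transcripts of Fbn1 stood at 59.3, 69.8 and 49.8 CPM in Control DMSO and at 109, 94.9 and 60.3 CPM in Ctu1KO DMSO (0.58 ± 0.21, adjusted p = 0.140).

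Fn1 was the most abundant of these genes in counts. Its footprints were 4324, 3997, 2046, 1903 and 2254 CPM in Ctu1KO DMSO against 1844 to 3052 CPM (median 2489) in Control DMSO (0.20 ± 0.22, adjusted p = 0.690). Replicates 1 and 2 of the knockout lay above all Control libraries and the others within their range. Its transcripts were 3432, 4195 and 2577 CPM in Control DMSO, 6652, 6096 and 3048 in Ctu1KO DMSO, 5517, 5861 and 3689 in Control Torin1 and 13396, 10892 and 5303 in Ctu1KO Torin1. Their log2 changes on knockout were 0.65 ± 0.28 under DMSO (adjusted p = 0.211) and 1.02 ± 0.33 under Torin1 (adjusted p = 0.152). With the block both passed, as did those of Fbn1 and Sparc, so that 3 of 3 glycoprotein transcripts rose under either treatment in that fit. Of all genes, 28.0% were called with the block under DMSO and 32.8% under Torin1. Sparc footprints had 542 to 967 CPM (median 771) in Control DMSO and 1243, 1081, 887, 743 and 862 CPM in Ctu1KO DMSO, again with replicates 1 and 2 above the Control range. They gave 0.29 ± 0.16 under DMSO (adjusted p = 0.363) and 0.22 ± 0.22 under Torin1 (adjusted p = 0.680).

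None of the 13 enzymes and chaperones passed on knockout as designed, with 9 of 13 footprint changes above 0 under DMSO (5 at an unadjusted p under 0.05). DESeq2 called 1 of them under DMSO, P4ha2. Serpinh1, the collagen chaperone, had 819 to 1253 CPM (median 859) of footprints in Control DMSO and 1687, 1523, 1261, 853 and 956 CPM in Ctu1KO DMSO (0.35 ± 0.18, adjusted p = 0.328). P4ha2, a prolyl 4-hydroxylase subunit, had 40.2 to 47.6 CPM (median 42.6) against 34.1, 31.9, 32.8, 18.1 and 35.2 CPM. Its groups did not overlap, and the change of -0.54 ± 0.15 missed the threshold (adjusted p = 0.0777). P4ha1, another such subunit, had 95.4 to 138 CPM (median 127) against 113, 106, 86.9, 91.2 and 93.9 CPM (-0.36 ± 0.12, adjusted p = 0.124). The lysyl hydroxylases were lower in level and overlapped between genotypes. Plod1 had 10.8 to 18.4 CPM (median 15.3) against 26.2, 17.1, 16.0, 13.9 and 10.6 CPM (0.12 ± 0.21). Plod2 had 31.5 to 46.0 CPM (median 42.3) against 41.1, 38.3, 26.7, 30.9 and 31.9 CPM (-0.31 ± 0.13), and Plod3 had 23.4 to 33.8 CPM (median 30.2) against 24.5, 34.1, 31.5, 23.1 and 26.5 CPM (-0.11 ± 0.14). The lysyl oxidases, which crosslink collagen, did not pass either. Loxl1 had a log2 change of 0.63 ± 0.25 (adjusted p = 0.192), Loxl3 of 0.35 ± 0.19 (0.341) and Loxl4 of 0.43 ± 0.43 (0.656). Loxl2 had 17.2 to 26.8 CPM (median 24.6) in Control DMSO and 55.7, 39.0, 28.3, 22.7 and 24.3 CPM in Ctu1KO DMSO, a log2 change of 0.47 ± 0.21 (adjusted p = 0.263) that was 0.92 within replicates 1 and 2 and 0.06 within the later replicates. With the block, the transcripts of Loxl1 (0.59, adjusted p = 0.0013), Loxl2 (0.70, 0.0015), Loxl3 (0.24, 0.030) and Serpinh1 (0.32, 0.010) rose under DMSO, as did Loxl1 (0.72, 0.0043) and Serpinh1 (0.24, 0.037) footprints under Torin1.

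Integrin chains gave no call on knockout as designed (2 of 10 at an unadjusted p under 0.05 in footprints under DMSO, 1 by DESeq2, Itga3). Itga3, a laminin receptor chain, had 165 to 247 CPM of footprints (median 187) in Control DMSO and 184, 182, 95.9, 121 and 113 CPM in Ctu1KO DMSO (-0.51 ± 0.17, adjusted p = 0.136). Its transcripts stood at 353, 391 and 289 CPM in Control DMSO and at 273, 241 and 145 CPM in Ctu1KO DMSO, without overlap (-0.63 ± 0.21, adjusted p = 0.123, 0.0031 with the block). Of the other abundant chains, the fibronectin receptor chain Itga5 had 137 to 193 CPM (median 167) in Control DMSO and 203, 212, 141, 138 and 141 CPM in Ctu1KO DMSO (-0.03 ± 0.14). Itgb1, its partner, had 476 to 673 CPM (median 649.7) against 699, 609, 475, 665 and 612 CPM (-0.05 ± 0.11). Itgav, which pairs with several beta chains, had 162 to 217 CPM (median 201) against 255, 215, 169, 178 and 179.9 CPM (-0.03 ± 0.12). All 3 overlapped between genotypes. Under Torin1 the changes of these 3 on knockout were 0.08 ± 0.20, 0.06 ± 0.19 and 0.23 ± 0.17, with adjusted p between 0.510 and 0.911. Itga10 had log2 changes of 1.34 ± 0.50 under DMSO and 1.98 ± 0.71 under Torin1 (adjusted p = 0.168 and 0.139) on footprints of only 0.463 to 28.5 CPM. Itgb1bp1, an adaptor of the beta-1 chain, and Itgb3bp gave 0.36 ± 0.21 and 0.11 ± 0.26 under DMSO.

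All transcripts of these genes that rose under Torin1 as designed were basement membrane ones. All 10 of that role had positive log2 changes in Control (median 0.34) and in Ctu1KO (median 0.68), and 3 and 1 of them passed the test. Over all genes fewer transcripts rose (547) than fell (712) in Control, and 359 rose and 435 fell in Ctu1KO. With the block 8 of 10 rose in Control (43.7% of all genes called in either direction) and 9 of 10 in Ctu1KO, all but Col4a5 (35.1%). Scaling to library totals left 9 of 10 above 0 in Control and 10 of 10 in Ctu1KO. With RNA-seq replicates 4 to 6 added, some of which go against their labels, 6 of 10 were above 0 in Control (median 0.13) and none passed (1 at an unadjusted p under 0.05). The only gene of the 48 that passed there was P4ha2, which fell by 0.38 on the log2 scale (adjusted p = 0.00615).

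Lama5 transcripts went from 48.8, 55.5 and 51.5 CPM in Control DMSO to 84.1, 82.8 and 67.4 CPM in Control Torin1 (0.62 ± 0.09, adjusted p = 0.00767), and the call held with any 1 library left out. In Ctu1KO they went from 34.0, 31.4 and 20.1 CPM to 68.5, 66.1 and 37.6 CPM (1.07 ± 0.27, adjusted p = 0.0550, 1.7e-05 with the block). All Torin1 libraries lay above all DMSO libraries of their genotype. With all RNA-seq replicates the change in Control was 0.25 and did not pass (adjusted p = 0.656). Nid1 went from 281, 313 and 273 to 417, 380.2 and 331 CPM in Control (0.41 ± 0.09, adjusted p = 0.0276), a call lost without any library but Control Torin1 replicate 3 (adjusted p 0.0599 to 0.103). With all RNA-seq replicates Nid1 gave 0.22 (adjusted p = 0.353) in Control.

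Hspg2 transcripts went from 347, 402 and 292 CPM to 549, 550.5 and 343 CPM in Control (0.50 ± 0.19, adjusted p = 0.132) and from 414, 331 and 206 CPM to 781, 652 and 295 CPM in Ctu1KO (0.92 ± 0.37, adjusted p = 0.182). In both genotypes replicate 3 under Torin1 lay within the DMSO range. With the block they rose (0.48, adjusted p = 0.00013, and 0.86, adjusted p = 0.00014). Col4a1 transcripts, with log2 changes of 0.28 ± 0.26 and 0.70 ± 0.42, also rose with the block (adjusted p = 0.0012 and 0.0006). Fn1, outside the basement membrane, gave 0.59 ± 0.21 in Control and 0.97 ± 0.38 in Ctu1KO (adjusted p = 0.113 and 0.174), and rose with the block in both (adjusted p = 1.6e-06 and 1.1e-05). Itga5 did likewise, with 0.43 ± 0.18 and 0.74 ± 0.33.

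Footprints of the basement membrane genes were split in direction. Under Torin1, 5 of 10 footprint changes were above 0 in Control (median 0.07) and 7 of 10 in Ctu1KO (median 0.22). Scaled to library totals, where the median of all genes was 0.10 in Control and 0.11 in Ctu1KO, these counts were 6 and 7 of 10. The split of all genes turned from 287 higher and 427 lower to 602 higher and 327 lower in Control, and from 343 and 445 to 580 and 317 in Ctu1KO. Lama5 footprints, at 56.9 to 82.8 CPM under DMSO and 43.0 to 78.8 CPM under Torin1 in Control, had a log2 change of -0.44 ± 0.16 (adjusted p = 0.131), which passed with the block (-0.45, adjusted p = 0.0012). In Ctu1KO they fell by 0.87 ± 0.24 on the log2 scale (adjusted p = 0.0419). That call was lost without Ctu1KO DMSO replicate 1, 2 or 3 or Ctu1KO Torin1 replicate 3, 4, 5 or 6 (adjusted p 0.0503 to 0.112) and with scaling to library totals (-0.78, adjusted p = 0.0581).

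Lama5 was also the gene whose efficiency passed. Under Torin1 it fell by 1.13 ± 0.20 on the log2 scale in Control (adjusted p = 0.0109) and by 2.07 ± 0.45 in Ctu1KO (adjusted p = 0.0339). The call in Control was lost without Control DMSO replicate 1 or 2 or Control Torin1 replicate 1 (adjusted p 0.0745 to 0.118), and that in Ctu1KO without replicate 1 or 2 of either group (adjusted p 0.123 to 0.169) and with library totals (-1.91, adjusted p = 0.0576). With all RNA-seq replicates the Ctu1KO value was -1.40 (adjusted p = 0.0303), and no efficiency of the 48 genes passed in Control (2 at an unadjusted p under 0.05). With library totals the median efficiency change of all genes was 0.16 in Control and 0.20 in Ctu1KO. Hspg2 efficiency had log2 changes of -0.85 ± 0.33 and -1.46 ± 0.65 (adjusted p = 0.569 and 0.532), which passed with the culture as a block (-0.84, adjusted p = 0.0047, and -1.54, adjusted p = 0.001). Col4a1 gave -0.52 ± 0.41 and -0.88 ± 0.69, of which the second passed with the block (-0.96, adjusted p = 0.035). Of the 10 basement membrane genes, 9 had negative efficiency changes in Control (median -0.22) and 8 in Ctu1KO (median -0.44), against 8 and 8 with library totals. The Torin1 effect on Lama5 footprints did not differ between genotypes beyond its spread (interaction -0.42 ± 0.30, adjusted p = 0.9998).

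**Figure D4:**
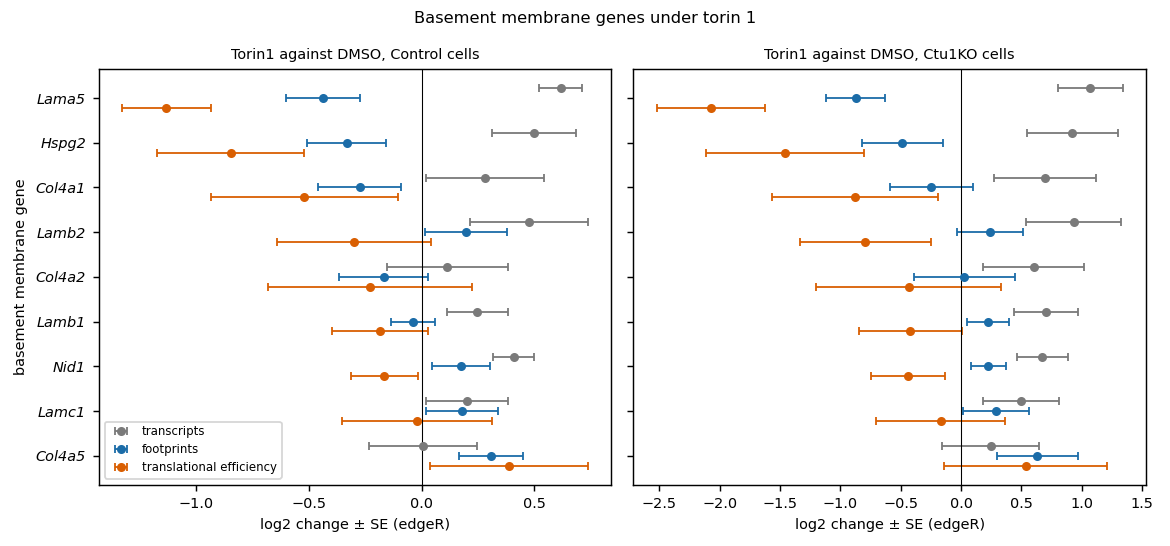
Log2 change under Torin1 against DMSO of transcripts, footprints and translational efficiency for 9 basement membrane genes, estimate ± SE, in Control (left) and Ctu1KO (right). Transcript changes lie above 0 for all 9 genes, while the efficiency of Lama5 lies at -1.13 in Control and -2.07 in Ctu1KO.

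Outside the basement membrane, no footprint or transcript passed under Torin1 as designed. With the block, 9 of the 14 footprint calls in Control lay outside it, with 20.5% of all genes called. Of the transcripts that rose with the block, 8 of 15 in Control and 9 of 17 in Ctu1KO were basement membrane ones and the others lay outside it. In the Control fit with the block, footprints of P3h1, P4ha2, Plod3, Serpinh1 and Col5a1 fell and those of Col8a1, Itga5, Itga6 and Itgb5 rose. Serpinh1 footprints ran from 634 to 1079 CPM (median 798) in Control Torin1, a log2 change of -0.30 ± 0.15 (adjusted p = 0.276, 0.0013 with the block). P4ha2 gave -0.36 ± 0.12 (adjusted p = 0.0754, 0.024 with the block) and was the only enzyme whose transcripts also fell with the block (-0.29, adjusted p = 0.00063). Col1a1 and Col3a1 footprints gave -0.09 ± 0.23 and -0.08 ± 0.19 in Control and 0.03 ± 0.47 and -0.14 ± 0.32 in Ctu1KO, Sparc gave 0.07 ± 0.15 and -0.00 ± 0.24, and Loxl2 gave -0.04 ± 0.13 and -0.16 ± 0.27. Itgb1 and Itgav gave 0.15 ± 0.12 and 0.08 ± 0.10 in Control. Itga10 footprints gave 2.08 ± 0.67 in Ctu1KO (adjusted p = 0.0764) from 0.742 to 5.17 CPM under DMSO and 1.59 to 28.5 CPM under Torin1.

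Genes around these in the same pathways were counted from 4 lists. Of 30 other secreted matrix proteins tested under DMSO, footprints of 3 rose on knockout and 0 fell, where 2.66% of all genes passed. They were Fbln2 (0.97 ± 0.16, adjusted p = 0.00797) and Fbln5 (0.68 ± 0.17, 0.0472), which encode fibulins, and Thbs2 (thrombospondin-2, 0.96 ± 0.20, 0.0223). The same 3 rose under Torin1 out of 27 (0.89 to 1.09), with a background of 4.83%, and 5 of 30 transcripts rose under DMSO (5.12%), among them Fbln2 (1.15), Thbs2 (1.21), Fbln5 (1.08) and Dcn (decorin, 1.36). On knockout under Torin1, Fbln2 transcripts passed as designed (1.35, adjusted p = 0.0416), 1 of 27 with 1.31% of all genes called, and with the block 18 of 27 rose and 1 fell (32.8%). Ccn1, a matricellular protein, fell under Torin1 in Control footprints (-0.80 ± 0.20, adjusted p = 0.0239) and in transcripts of both genotypes (-0.82 and -0.96), while Thbs2 transcripts rose under Torin1 in Control (0.70 ± 0.14, adjusted p = 0.0189). These were 0 higher and 1 lower of 27 footprints in Control (7.24% of all genes called), 1 higher and 1 lower of 27 transcripts in Control (13.1%), and 0 higher and 1 lower in Ctu1KO (8.25%). With the block, 16 of 30 transcripts rose and 4 fell on knockout under DMSO (28.0% of all genes called), and 7 of 27 footprints rose and 3 fell on knockout under Torin1 (14.4%).

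Of 31 genes of the integrin adhesion complex, knockout raised 2 footprints under DMSO (2.66% of all genes called) and 4 under Torin1 (4.83%). Nedd9, a docking protein, rose under both (1.04 ± 0.17, adjusted p = 0.00628, and 1.14 ± 0.15, adjusted p = 0.000374). The others were Parva under DMSO and the actin-linking Actn1, Tns3 and Actn4 under Torin1. Torin1 raised Pxn and Src in Control and Flna (1.08 ± 0.26) and Src in Ctu1KO, 2 of 31 in each, where 7.24% and 8.0% of all genes passed. Among transcripts it raised Nedd9 (0.56), Lims1 (0.32), Pxn (0.26) and Src (0.22) in Control (13.1% of all genes called) and Nedd9 (0.68) and Flna (1.16) in Ctu1KO (8.25%). Ptk2, the focal adhesion kinase, was the only list member whose efficiency passed as designed, rising under Torin1 in Ctu1KO (0.86 ± 0.19, adjusted p = 0.0334, 0.0393 with the culture as a block), where 1.77% of all genes passed. With that block, 2 of the 27 other secreted matrix proteins had lower efficiency there (2.03% of all genes called). On knockout, transcripts of Nedd9 (0.94), Tln2 (0.48) and Actn1 (0.36) rose under DMSO (5.12%) and those of Nedd9 (1.06) under Torin1 (1.31%), where the block gave 14 higher and 2 lower of 31 (32.8%). With the block, 12 of 31 transcripts rose and 2 fell on knockout under DMSO (28.0% of all genes), and 9 footprints rose and 1 fell on knockout under Torin1 (14.4%).

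Of 22 matrix proteases and inhibitors, Htra1 footprints rose on knockout under DMSO (0.86 ± 0.15, adjusted p = 0.0103), and 3 transcripts rose (Timp1, Timp2 and Mmp3, 0.37 to 0.65), with backgrounds of 2.66% and 5.12%. Under Torin1, Plau rose (0.67) in Control footprints and Adamts1 rose (0.74) in Ctu1KO, and Mmp3 transcripts rose in Control (0.42). With the block, 11 of 22 transcripts rose and 1 fell on knockout under DMSO, 6 of 21 footprints rose and 0 fell on knockout under Torin1, and 6 rose and 3 fell under Torin1 in Control (28.0%, 14.4% and 20.5% of all genes). Of 26 genes of collagen folding and export, none passed on knockout under DMSO in either assay as designed, but with the block 7 transcripts rose and 1 fell (28.0% of all genes). In footprints, Sec24d rose on knockout under Torin1 (0.38 ± 0.10), Creb3l2 rose with Torin1 in Control (0.77 ± 0.14, adjusted p = 0.00223) and Ppib fell with it in Ctu1KO (-0.40 ± 0.10, adjusted p = 0.0265).

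The block changed the counts of the lists in the other comparisons with paired numbers as well. For transcripts on knockout under Torin1 it gave 13 higher and 1 lower of 21 proteases and inhibitors and 10 higher and 0 lower of 26 folding and export genes (32.8% of all genes called). For transcripts under Torin1 in Control (43.7%) it gave 10 higher and 2 lower secreted matrix proteins, 10 and 6 adhesion genes, 8 and 2 proteases and inhibitors, and 2 and 4 folding and export genes. In Ctu1KO (35.1%) the same lists had 12 higher and 2 lower, 9 and 2, 7 and 1, and 4 and 3. For footprints under Torin1 in Control (20.5%), 2 secreted matrix proteins were higher and 4 lower, 5 adhesion genes were higher and 1 lower, and 1 folding and export gene was higher and 4 lower. On knockout under Torin1, footprints of 1 folding and export gene were higher and of 2 lower (14.4%). The median footprint changes of the 4 lists on knockout under DMSO lay between 0.04 and 0.17, against -0.00 over all genes. The Torin1 effect on footprints passed the test of a difference between genotypes for no list member.

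The codon shares of the 51 genes and their footprint changes on knockout under Torin1 are set beside each other without a test. Lama5, with a log2 change of -1.41 ± 0.21, held these codons at 2.53%, the 8.34th percentile of all genes with a coding sequence. Hspg2 (3.15%) had a log2 change of -0.43 ± 0.28, Col4a1 (7.37%) -0.37 ± 0.30, Lamb1 (7.61%) -0.28 ± 0.15 and Itgb1 (10.03%) 0.06 ± 0.19. Itgb3bp, with 17.05% the richest of the 51, stood at 0.06 ± 0.26, and Serpinh1, with 1.92% the poorest, at 0.26 ± 0.19. By role, the median share was 5.66% in basement membrane genes, 5.85% in fibrillar collagens, 4.62% in other collagens, 4.25% in enzymes and chaperone, 4.68% in glycoproteins and 4.16% in integrin chains. Fibrillar collagens held a median of 24.5% glycine codons and all 51 genes 9.09%, against 6.21% over all genes.

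**Figure D5:**
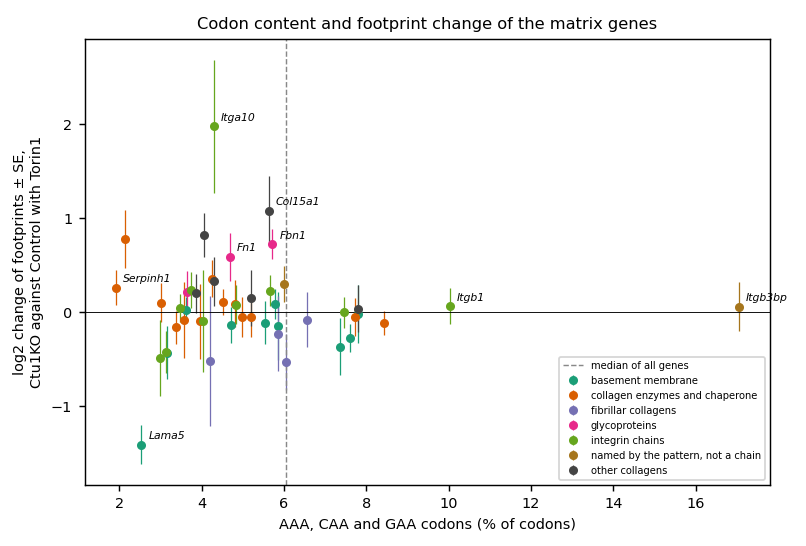
Share of AAA, CAA and GAA among the codons of each gene (horizontal, %) and log2 change of its footprints in Ctu1KO against Control with Torin1 (vertical, ± SE), coloured by role, with the median share of all genes (6.06%) dashed. Lama5 lies at 2.53% and -1.41, and Itgb3bp, the richest at 17.05%, at 0.06.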

How the data were processed

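Ribosome footprints and RNA of EPP2 cells were read from gene-level tables of raw read counts, 1 per library, deposited by the authors. The submitters' processing notes name STAR (version 2.5.3a for footprints), UMI-tools 1.1.1, cutadapt 3.4 and the mouse build mm10. The methods name a human build for the footprint alignment, whereas the tables hold mouse gene symbols. In the methods, footprint fragments under 27 nt and ribosomal RNA reads were removed and RNA-seq was stranded and paired, and all RNA-seq counts are even numbers. The files list only part of the annotated genes, so genes with low counts were not analysed here.

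Counts of each comparison were tested with edgeR 4.0.16 (quasi-likelihood F-test, TMM scaling, Benjamini-Hochberg adjustment over all genes, threshold 0.05) on the libraries of the groups compared, without a block, and with DESeq2 1.42.0 as an alternative. Translational efficiency was the interaction of assay and condition over replicates 1 to 3. Genes needed a mean of at least 10 counts. CPM values are counts over the library's total for the symbols in the tables of both treatments, without TMM. In 23 entries, 11 gene symbols were repeated, and these were left out. The steps were tested on simulated counts, in which 73% of genes changed by 1 on the log2 scale and 25% of those changed by 0.5 were recovered for footprints of the knockout under DMSO (10397 genes). For efficiency of the knockout under DMSO these shares were 27% and 1% (10117 genes), and for the footprint interaction 44% and 0% (9857 genes). No library repeated another. Members and gene lists were chosen with earlier results of these data known. The rule named the main collagens, laminins, enzymes and integrins of each role by sample, then members that passed (at most 12 a comparison) and up to 4 passing genes per list. Other members are named after their values were seen, and some genes are not reported here.

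Replicate numbers were read from the labels. Deviations of same-numbered libraries correlated in every pair above 0.1 for the footprint comparisons under Torin1 in Control (0.436 to 0.641) and of knockout under Torin1 (0.317 to 0.543), for all 4 transcript comparisons (lowest 0.478, highest 0.837) and for footprints and RNA of a culture (0.162 to 0.462), and blocked counts are given for those comparisons. They did not for footprints of knockout under DMSO (lowest -0.094) and of Torin1 in Ctu1KO (lowest -0.033). Other alternatives were library totals in place of TMM, a term for replicates 1 and 2 against later ones, each set of replicates alone, all RNA-seq replicates, and leaving out each library. Codons were counted in GENCODE M21 coding sequences of GRCm38. Figures were drawn with matplotlib 3.10.9.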

Additional observations from a re-analysis of the deposited data

Results flagged for a closer look

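Of 100 sets of 5 or 6 footprint libraries, each a gene in 1 group, tested for a library far from the others (Dixon's test), 4 held one. Chance gives about 1 in 20. Nid1 footprints were 455.4 CPM in Control Torin1 replicate 4, against 315.5 to 350.5 CPM in the other libraries of that group. P4ha2 stood at 18.07 CPM in Ctu1KO DMSO replicate 4, against 31.9 to 35.2 CPM in the others. In Control DMSO replicate 3, Loxl2 was at 17.24 CPM and Itgav at 162.3 CPM, below the other 5 libraries in both genes (23.83 to 26.79 and 198.1 to 217.2 CPM). All 4 libraries entered the tests.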

How the results depend on the processing

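The number of the 51 or 48 genes past the threshold changed under several alternatives. With DESeq2, footprints gave 5 calls on knockout under DMSO, 2 under Torin1 in Control, 3 under Torin1 in Ctu1KO and 4 on knockout under Torin1, and transcripts in the same order gave 11, 5, 7 and 5. With the replicate block, footprints gave 4, 14, 3 and 10 and transcripts 23, 17, 17 and 18, and with a culture block efficiencies under Torin1 gave 2 in Control and 3 in Ctu1KO. For the 2 footprint comparisons whose numbers did not pair (4 and 3 calls), 3 of 5 libraries correlated best with their own number. A term for replicates 1 and 2 against later ones gave 9, 4, 4 and 5 for footprints and 22, 15, 14 and 10 for transcripts. Replicates 1 and 2 alone gave 0 footprint calls on knockout under DMSO, 0 under Torin1 in Ctu1KO and 0 on knockout under Torin1, as did replicates 1 to 3, and 22, 12, 14 and 3 for transcripts. Replicates 3 to 6 alone gave 7, 1, 2 and 8 for footprints. All RNA-seq replicates gave 17 transcript calls on knockout under DMSO, 1 under Torin1 in Control, 0 under Torin1 in Ctu1KO and 0 efficiencies under Torin1 in Control, and turned the Torin1 transcript changes of Lamb1 and Lamc1 in Control to -0.035 and -0.014. The causes were not tested. Where the share of all genes called in the same fit is not given, these counts are not read as results about these genes.

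Leaving out 1 library at a time gave 0 to 3 calls for footprints on knockout under DMSO, 0 to 2 under Torin1 in each genotype and 2 to 5 on knockout under Torin1. For transcripts it gave 0 to 7 and 2 to 8 (knockout under DMSO, Torin1 in Control), 0 to 13 (Torin1 in Ctu1KO) and 0 to 11 (knockout under Torin1), the highest each without a replicate 3, and for efficiencies under Torin1 0 to 1 in each genotype. Efficiencies on knockout and the interaction stayed at 0. Among single genes under the other alternatives, 401 values kept their direction and side of the threshold, 139 passed only under the alternative, 18 passed only as designed and 2 turned. Depth limits the lowest genes most: Ctu1KO Torin1 replicate 1 has 4602092 footprints, and intervals cover the spread between libraries only.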
